A study of Mus musculus with 8 samples.

Results

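Expression of 8 genes of local haemostasis was examined in the epidermis of mice with an epidermis-specific Rora deletion: thrombomodulin (Thbd), the endothelial protein C receptor (Procr), tissue factor (F3), the inhibitors Tfpi and Tfpi2, the plasminogen activators Plau and Plat, and the urokinase receptor Plaur. They are 8 of the 55416 genes in the deposited count table, found by gene symbol, and Thbd was chosen by its separation of the genotypes in these same libraries, so that its values are given as a description with no test. The RNA came from back epidermis at postnatal day 4, with 4 libraries labelled WT (control A1, B1, C1, C6) and 4 labelled as knockout (RoraEKO A3, B4, C2, C3). RoraEKO mice came from a cross of Rora flox/flox mice with K14-Cre mice, in which the keratin 14 promoter drives Cre in keratinocytes. Whether the control littermates carried floxed alleles was not stated, and the epidermis was peeled from heated skin, so that immune cells, melanocytes and parts of the hair follicle stayed with the keratinocytes.

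Clotting on a cell surface begins when tissue factor binds factor VIIa. Tissue factor pathway inhibitor blocks this complex. Thrombomodulin binds thrombin and turns it to the activation of protein C, which the endothelial protein C receptor holds at the membrane. Urokinase (Plau) and tissue-type plasminogen activator (Plat) convert plasminogen to plasmin, and urokinase does so on its receptor. Keratinocytes are known to make tissue factor, thrombomodulin and urokinase, while most circulating clotting factors come from the liver.

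Library totals ran from 17286903 to 26705533 counts, and 13147 genes passed the filter on low counts. Values are counts per 1000000 scaled counts (CPM). A gene was called when edgeR gave it an adjusted p (quasi-likelihood test, Benjamini-Hochberg) under 0.05 and its fold change over 1.5. The knockout labels were not checked by Rora itself, since its CPM summed over the whole gene overlapped between genotypes (157.7 to 308.7 in control, 153.7 to 236.8 in RoraEKO). RoraEKO therefore stands for the label. Xist was expressed in 2 libraries, control C1 and C6, and was at or under 0.0547 CPM in the other 6. No RoraEKO library expressed it, so differences that go with Xist cannot be fully told apart from genotype. The suprabasal keratins Krt1 and Krt10 lay between 17160 and 52400 CPM and the basal keratins Krt5 and Krt14 between 61.1 and 705.7 CPM. The summed CPM of 5 suprabasal markers was 44840 to 70750 in control and 86050 to 107100 in RoraEKO, without overlap, and Krt1 and Krt10 made up most of it. The other 3 did not share this pattern. Dsg1a and Sbsn overlapped between genotypes, and of Krtdap the levels were 2794 to 3668 CPM in control and 2447 to 2823 CPM in RoraEKO. None of the 5 was called, with adjusted p from 0.274 to 0.988 in the same test, and the part of this sum in the differences given here was not tested. In bulk samples, fewer cells of a type and less RNA per cell cannot be told apart.

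The promoters of F3, the member that was called lower, and Procr, whose control libraries spread widely, are shown from the RefSeq table of GRCm38.p6, which held entries for 5 of the 8 members and none for Thbd, Plau or Plat. Each run is the 250 bases before the annotated start, on chr3:121723287-121723536 (plus strand) for F3 and chr2:155750967-155751216 (plus strand) for Procr. Capitals mark AP-1 motifs (TGANTCA), Sp1 motifs (GGGCGG) and ROR half-sites (AGGTCA), each read on both strands.
F3: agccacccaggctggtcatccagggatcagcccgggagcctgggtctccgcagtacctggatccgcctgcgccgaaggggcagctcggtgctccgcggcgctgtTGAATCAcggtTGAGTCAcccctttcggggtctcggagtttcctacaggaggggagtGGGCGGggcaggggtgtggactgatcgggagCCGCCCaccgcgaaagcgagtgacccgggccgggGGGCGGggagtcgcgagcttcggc
Procr: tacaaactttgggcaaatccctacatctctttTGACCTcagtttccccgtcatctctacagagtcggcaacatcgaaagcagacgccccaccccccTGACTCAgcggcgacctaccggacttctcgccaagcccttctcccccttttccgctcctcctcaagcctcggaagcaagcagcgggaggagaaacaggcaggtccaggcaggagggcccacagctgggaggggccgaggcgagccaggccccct
The F3 run held 2 AP-1 motifs, 3 Sp1 motifs and no AGGTCA, and its GC content was 70.0%. The Procr run held 1 AGGTCA and 1 AP-1 motif. Among the 32851 promoters of the table, 14.0% held AGGTCA, 6.75% TGANTCA and 32.7% GGGCGG. These matches describe the letters only.

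Thbd (ENSMUSG00000074743), the thrombin receptor of the protein C pathway, lies at chr2:148216045-148250201 on the minus strand of GRCm39. It was at 5.71, 6.72, 4.59 and 4.77 CPM in controls A1, B1, C1 and C6, and at 48.4, 66.8, 55.1 and 57.7 CPM in RoraEKO A3, B4, C2 and C3. Every RoraEKO library was above every control library. The means were 5.45 ± 0.981 CPM (SD, n = 4) and 57.0 ± 7.64 CPM (SD, n = 4), a fold of 10.5 and a log2 fold change of 3.39 (SE, the standard error of the difference in mean log2 CPM, 0.157). The log2 fold change lay between 3.20 and 3.52 under every one of the 18 alternative settings. Sample titles also carry a letter, shared by libraries of both genotypes, which was not stated to be a litter or a batch. The fold of Thbd was 8.47 within letter A, 9.94 within letter B and 12.05 within letter C. Sstr4, a somatostatin receptor gene on the opposite strand, overlaps Thbd in the annotation. The libraries were made with a stranded kit, but the strand setting of the counting was not stated, so reads of the 2 genes may not have been kept apart. The same limit holds for F3, which Gm64338 and Gm43823 overlap on the opposite strand, and for Plau (Gm63115) and Pros1 (Gm60971). It also holds for F2rl1, Serpinb2 and Anxa2, named below.

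Thbd is best known from endothelium, and blood vessel markers were therefore set beside it. The summed CPM of 8 endothelial markers was 0.757 to 2.21 in control and 0.945 to 4.53 in RoraEKO, with RoraEKO C2 and C3 highest at 4.53 and 3.15. In RoraEKO B4, which had the highest Thbd level, the 8 markers summed to 0.945 CPM, of which Egfl7 had 13 counts, Pecam1 9, Tek 1 and the other 5 markers 0. Emcn had 1 count or fewer in every library. The part of endothelial cells in the Thbd level was not tested.

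Procr (ENSMUSG00000027611), which presents protein C to thrombomodulin, lies at chr2:155593031-155597397. It was at 197.1, 40.1, 48.6 and 22.9 CPM in controls A1, B1, C1 and C6, and at 80.7, 52.0, 14.7 and 34.5 CPM in RoraEKO A3, B4, C2 and C3. The genotypes overlapped, and control A1 stood far above the other control libraries. The means were 77.1 ± 80.7 and 45.5 ± 28.0 CPM (SD over 4 libraries each), a log2 fold change of -0.77 (SE 0.84, adjusted p = 0.65 in the quasi-likelihood test of edgeR). Without control A1 the log2 fold change was 0.29 (adjusted p = 0.797 in the same test), so the direction rested on that library. The 95% interval of the difference in mean log2 CPM, -2.59 to 1.57, included large differences in both directions.
Procr tended to be high in the libraries where hair follicle markers were high. The summed CPM of Krt25, Krt27, Krt71, Krt33a and Hoxc13, which mark the inner root sheath and hair shaft, ran from 4458 in control C6 to 32940 in control A1. Over the 8 libraries, Pearson's r between Procr and this sum, both as log2 CPM with a small constant added, was 0.743. Spearman's rho was 0.81, and r was 0.476 over 6 libraries without A1 and C6. Of the 4 marker sums set against Procr on this scale, r was 0.475 for basal keratinocytes, -0.228 for endothelial cells and -0.53 for suprabasal keratinocytes. Without the 2 libraries farthest from each sum's median, as log2, r was 0.672, 0.791 and -0.044. Spearman's rho for these sums over the 8 libraries was 0.619, -0.262 and -0.143 in the same order. The libraries left out differed between sums, so the r values without them cannot be ranked against each other. The r between Procr and the hair sum fell without A1 and C6. This relation was looked at after the values were seen and is a description of 8 libraries that differ in hair follicle transcripts. The genes most like Procr in log2 CPM over the 8 libraries were Ppp2r1b (r = 0.992), Pitrm1 (0.991), Krtap24-1 (0.989), S100a3 (0.988) and Cldn12 (0.985), of which Krtap24-1, a hair keratin-associated protein, and S100a3, a protein of the hair cuticle, are known from hair. After the genotype means were taken off they were Cyria (r = 0.997), Bean1 (0.996) and Pitrm1 (0.992).

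**Figure D1:**
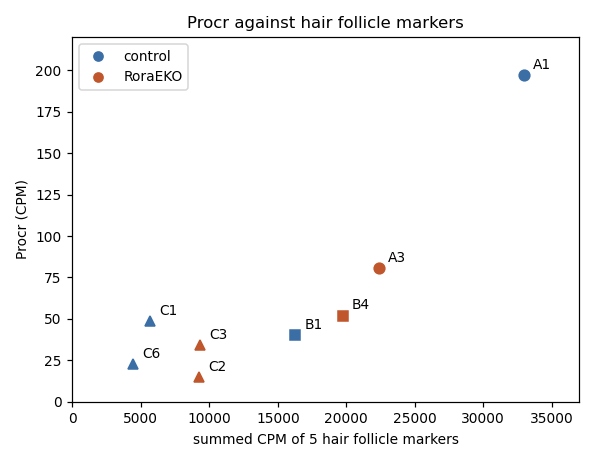
Procr level (CPM, y axis) against the summed CPM of 5 hair follicle markers (x axis), 1 point per library, coloured by genotype and named by replicate, with the marker shape giving the title letter. Control A1 is highest on both axes, at 32940 and 197.1 CPM, and the colours are mixed along the rest.

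F3 (ENSMUSG00000028128) encodes tissue factor, the initiator of clotting, and lies at chr3:121516610-121528820 on the plus strand of GRCm39. It was at 226.5, 336.3, 352.8 and 346.3 CPM in controls A1, B1, C1 and C6, and at 99.2, 146.4, 114.2 and 103.4 CPM in RoraEKO A3, B4, C2 and C3. Every RoraEKO library was below every control library. F3 fell from 315 ± 59.7 to 116 ± 21.3 CPM (SD over 4 libraries each), a fold of 2.72 and a log2 fold change of -1.45 (SE 0.198, adjusted p = 0.00225 in the quasi-likelihood test of edgeR). It was the 1 gene called among the 3 members other than Thbd that were tested, beside 5.51% of all genes tested that were called in either direction, 3.22% that were called lower and 2.3% that were called higher. Genotypes did not overlap for 12.9% of all genes tested. The ratio of control to RoraEKO was 2.28 within letter A, 2.30 within letter B and 3.21 within letter C. F3 remained called under all 18 alternatives, with adjusted p from 5.43e-10 to 0.0361. The highest of these came from the 6 libraries without Xist, in which the log2 fold change was -1.23.

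F3 was lower and Thbd higher in every RoraEKO library than in every control library. Within RoraEKO, B4 was highest and A3 lowest for both genes. Within control, C1 was highest for F3 and lowest for Thbd. Per kb of exon, the level of F3 was 93.6, 118, 181 and 172 times that of Thbd in control A1, B1, C1 and C6, and 4.84, 5.17, 4.89 and 4.23 times in RoraEKO A3, B4, C2 and C3. Every RoraEKO ratio was below every control ratio. This ratio contains Thbd and so repeats in part what chose it.

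**Figure D2:**
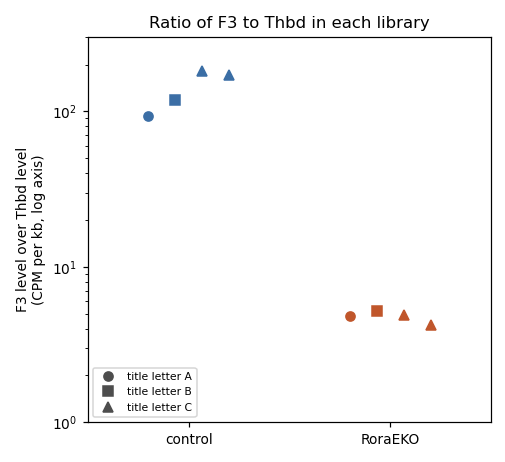
Level of F3 divided by level of Thbd (CPM per kb of exon, log y axis) in each library, by genotype on the x axis, with marker shapes for the title letter. The control libraries lie between 93.6 and 181 and the RoraEKO libraries between 4.23 and 5.17.

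The inhibitors of tissue factor were at or near the limit of detection, at which 3 counts equal 0.113 to 0.196 CPM. Tfpi, the main inhibitor of tissue factor and factor VIIa, had 5, 1, 1 and 2 counts in control A1, B1, C1 and C6 and 3, 5, 14 and 4 counts in RoraEKO A3, B4, C2 and C3. The counts overlapped, while in CPM the highest control (0.190, 5 counts in A1) was just under the lowest RoraEKO library (0.196, 3 counts in A3). RoraEKO C2, the library with the highest endothelial sum, was also highest for Tfpi. Tfpi2, an inhibitor of plasmin and other proteases of the extracellular matrix, had 0 counts in all 8 libraries, which allows up to 3 counts per library. Such limits cover counting error only. Neither gene passed the filter on low counts.

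Among the plasminogen activators only urokinase was well measured. Plau (ENSMUSG00000021822, chr14:20886722-20893453) was at 10.4, 12.7, 14.7 and 14.3 CPM in controls A1, B1, C1 and C6, and at 13.2, 17.0, 9.25 and 15.3 CPM in RoraEKO A3, B4, C2 and C3. The genotypes overlapped fully, with means of 13.05 ± 1.94 and 13.7 ± 3.34 CPM (SD over 4 libraries each) and a log2 fold change of 0.07 (SE 0.221, adjusted p = 0.919 in the quasi-likelihood test of edgeR). The 95% interval of the difference in mean log2 CPM was -0.53 to 0.62. The sign of so small a difference turned without control A1 (-0.02) and without RoraEKO B4 (-0.05).
Plat, the second activator, had 4, 5, 3 and 12 counts in control A1, B1, C1 and C6 and 9, 8, 14 and 17 counts in RoraEKO A3, B4, C2 and C3. Plaur, the receptor that holds urokinase at the cell surface, had 14, 0, 1 and 3 counts in the control libraries and 2, 7, 29 and 17 in the RoraEKO libraries in the same order. RoraEKO C2 and C3 were highest for Plaur and for the endothelial sum. On log2 CPM with a small constant added, r between both was 0.948 over 8 libraries and 0.852 over 6 without C2 and C3. In the same order, r with the endothelial sum was 0.825 and 0.607 for Tfpi, and 0.527 and -0.229 for Plat. RoraEKO C2 was also highest for the summed CPM of 8 neutrophil markers (3.95, against 0.237 to 1.05 in the other 7). The same held for 6 fibroblast markers (10.4, against 1.37 to 6.38). The part of these cells was not tested. With all genes of at least 1 count in the test, in which 3.35% of 23735 genes were called, the log2 fold changes were 1.75 for Tfpi (adjusted p = 0.345, edgeR), 1.89 for Plaur (adjusted p = 0.4, edgeR) and 1.27 for Plat (adjusted p = 0.356, edgeR), and none was called. Counts were low and, for Plaur, spread widely within each genotype.

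**Figure D3:**
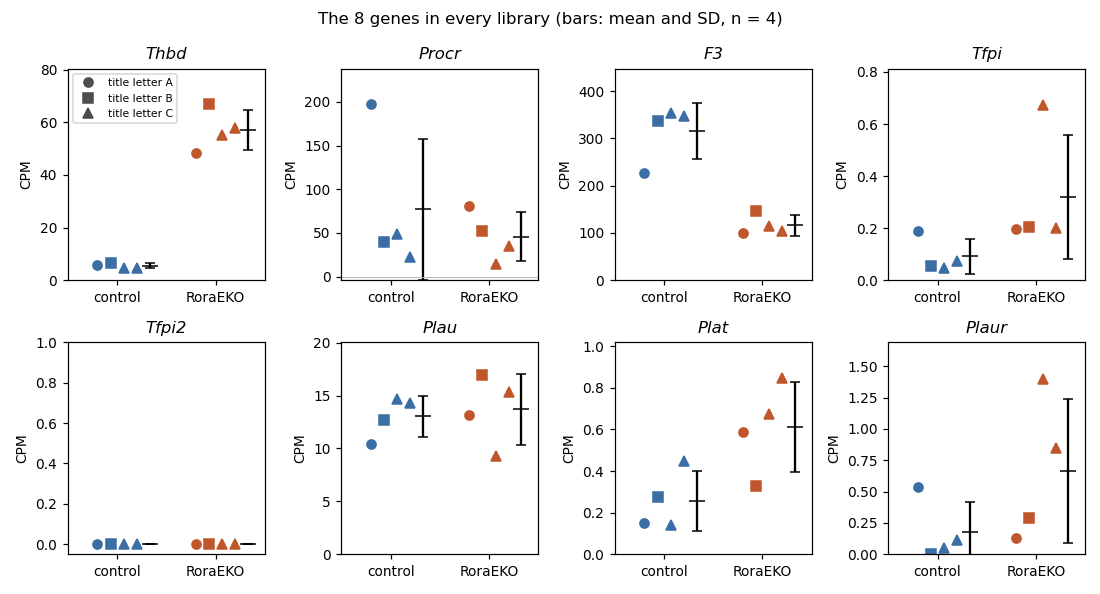
CPM (y axis, linear, a scale per gene) of the 8 genes in each library, by genotype on the x axis, with marker shapes for the title letter and black bars for the mean and SD of 4 libraries. The genotypes separate for Thbd and F3 and overlap for Procr, Plau, Plat and Plaur. Tfpi is separated only by 0.190 against 0.196 CPM, and Tfpi2 is at 0 throughout.

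The order of the members by level per kb of exon was F3, Procr, Plau and Thbd in control, at 102 ± 19.3, 37.8 ± 39.5, 5.08 ± 0.757 and 0.745 ± 0.134 CPM per kb (SD, n = 4), above the 4 members with few counts. F3 and Procr overlapped between libraries, whereas Procr, Plau and Thbd did not overlap with each other. In RoraEKO the order was F3, Procr, Thbd and Plau, at 37.4 ± 6.89, 22.3 ± 13.7, 7.79 ± 1.04 and 5.33 ± 1.3 CPM per kb. Procr overlapped with F3 and with Thbd, and the lowest Thbd library and the highest Plau library were both at 6.61 CPM per kb. By level per kb among 13116 tested genes with a length, Thbd went from rank 9119 to rank 2716, F3 from 350 to 735, and Plau from 3752 to 3591. The order was the same with the length of the longest transcript.

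The other genes of coagulation and fibrinolysis were read from a list of 44, of which 13 passed the filter. Of these, 1 was called higher and 0 lower, and 12 were not called, beside 5.51% of all genes tested that were called in either direction and 2.3% that were called higher. Without the filter on low counts 2 of the list were called, beside 3.35% of all genes. The median log2 fold change of the 13 was 0.003, beside -0.043 over all genes tested, and 3 of 13 (23.1%) did not overlap between genotypes, beside 12.9% of all genes.
Pros1, which encodes protein S, the cofactor of activated protein C, rose from 15.7 ± 1.07 to 30.4 ± 7.13 CPM (SD over 4 libraries each). It was at 15.3, 16.9, 14.4 and 16.1 CPM in control A1, B1, C1 and C6 and at 25.3, 23.5, 38.2 and 34.7 CPM in RoraEKO A3, B4, C2 and C3, without overlap. The log2 fold change was 0.95 (SE 0.177, adjusted p = 0.0098 in the quasi-likelihood test of edgeR). The call was lost with Xist as a covariate (adjusted p = 0.0598, edgeR) and in the 6 libraries without Xist (adjusted p = 0.0764, edgeR), while the log2 fold change stayed at 0.92 and 0.96.
Eno1 and Lrp1 were the other genes without overlap. They are named because they make up that count and were chosen after their values were seen. Eno1, a glycolytic enzyme that also binds plasminogen at the cell surface, was at 367 ± 44.1 and 614 ± 149 CPM (SD over 4 libraries each; log2 fold change 0.74, adjusted p = 0.0505, edgeR), and near-identical copies of it may share its reads. Lrp1, a receptor that clears protease complexes, was at 80.9 ± 5.73 and 93.7 ± 5.75 CPM (log2 fold change 0.21, adjusted p = 0.332, edgeR).

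Receptors and inhibitors that act with the members did not pass the cutoffs in the reported test. With the title letter as a block in the fit, F2rl1 and Serpinb2 did pass them, with values given in the last section. F2rl1, the protease-activated receptor PAR2 of keratinocytes, was at 23.9 ± 3.35 CPM in control and 15.8 ± 4.5 CPM in RoraEKO (SD over 4 libraries each; log2 fold change -0.60, adjusted p = 0.14, edgeR). It was called without RoraEKO B4 (log2 fold change -0.80, adjusted p = 0.0392, edgeR) and was at a log2 fold change of -0.39 without RoraEKO C2 (adjusted p = 0.389, edgeR). F2r, the thrombin receptor PAR1, had 4 to 18 counts per library and was not tested.
Serpinb2, an inhibitor of urokinase that keratinocytes make, was at 89.8 ± 21.6 and 149 ± 51.9 CPM (SD over 4 libraries each; log2 fold change 0.73, adjusted p = 0.142, edgeR). Its range was 69.3 to 119 CPM in control and 103.8 to 223.9 CPM in RoraEKO, which overlapped. Without RoraEKO B4 the log2 fold change of Serpinb2 was 0.47 (adjusted p = 0.29, edgeR). Serpine2, a protease inhibitor that also acts on urokinase, had 1 to 10 counts per library and was not tested.
Anxa2 and S100a10 encode the parts of a membrane complex that binds plasminogen. Anxa2 was at 526 ± 98.9 and 422 ± 42.0 CPM (log2 fold change -0.32, adjusted p = 0.379, edgeR), and S100a10 was at 70.2 ± 19.7 and 53.0 ± 12.7 CPM (log2 fold change -0.41, adjusted p = 0.435, edgeR; SD over 4 libraries each).
Clotting factors, most of which are made in the liver, had few counts except in control C6 and, less so, RoraEKO C2. The 16 factors other than Vwf summed to 343 counts in control C6, 58 in RoraEKO C2 and 6 to 13 in the other 6 libraries. Plg, the plasminogen on which both activators act, had 30 counts in control C6, 1 in RoraEKO C2 and 0 elsewhere.

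**Figure D4:**
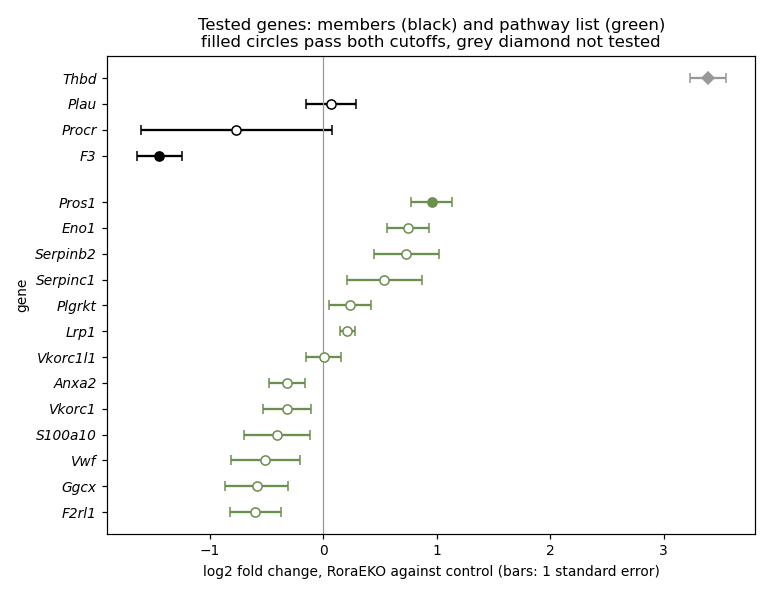
Log2 fold change of RoraEKO against control (x axis, bars 1 standard error) for the tested members in black and the 13 tested genes of the coagulation and fibrinolysis list in green (y axis, gene names). Filled circles passed both cutoffs; the grey diamond is Thbd at 3.39, shown as a description, F3 lies at -1.45 and Pros1 at 0.95.

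Genes next to the members were examined in position. The nearest tested genes to Thbd, Xrn2 at a distance of 1295324 bases and Nxt1 at 264320 bases, had log2 fold changes of 0.09 and 0.13 and were not called. The nearest tested gene on the lower side of F3 was Cnn3, which encodes the actin-binding protein calponin 3, at 264754 bases. Cnn3 fell from 81.8 ± 23.3 to 31.7 ± 12.3 CPM (SD over 4 libraries each; log2 fold change -1.37, SE 0.386, adjusted p = 0.0332, edgeR), without overlap between genotypes. It was called under 11 of 18 alternatives, and adjusted p was between 0.0521 and 0.106 under the 7 others, 6 of which left out a library: control A1, B1 or C6, or RoraEKO A3, C2 or C3. Its log2 fold change was between -1.52 and -1.09 in those 7. Abcd3, a peroxisomal transporter at 23603 bases on the other side, was not called (log2 fold change -0.34, adjusted p = 0.3, edgeR).

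Among the genes most like Thbd in log2 CPM over the 8 libraries were Krtap13 (r = 0.994), Krtap13-20 (0.99), Serpinb3c (0.99) and Sprr2a3 (0.987). For F3 they were Gtf2f2 (r = 0.992), Mgat5 (0.991), Ppp2r3a (0.987), Pgrmc2 (0.984) and Mocs2 (0.984). These values include the difference between genotypes. After the genotype means were taken off, the genes most like Thbd were Fmo5 (r = 0.952), Baiap2 (0.942) and Clca1 (0.935), and those most like F3 were Sel1l (0.998), Gtf2f2 (0.994) and Bcl2l13 (0.993). Gtf2f2, a subunit of the general transcription factor TFIIF, was the one gene in both lists of F3. The genes were picked as the highest of 13147 over only 8 libraries, and no p is given.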

How the data were processed

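RNA-seq was done on P4 dorsal epidermis, 4 control and 4 RoraEKO libraries. The authors mapped trimmed reads to GRCm39 (STAR 2.5.3a) and deposited RSEM expected counts per Ensembl gene, without scaling for depth or length. These expected counts were rounded; 2.99% of values were not whole. Symbols and coordinates came from GENCODE mouse release 39, in which 54749 of 55416 identifiers were found; the annotation used for counting was not given in the sources used here.

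Genes were filtered with filterByExpr, scaled with TMM and compared in edgeR 4.0.16 (R 4.3.3) by its legacy quasi-likelihood test with no covariate, at the cutoffs of the study's methods. Standard errors and intervals come from log2 CPM with a prior count of 2. Levels per kb used the union of exons. There were 17 alternative settings chosen at the start (RLE or no scaling factors, DESeq2 1.42.0, the non-legacy and likelihood ratio tests, 2 filters, the title letter as a block, Xist as a covariate, each library left out) and 1 chosen after seeing the data, the 6 libraries without Xist. Nothing states whether libraries of one genotype came from separate litters, so p-values measure the spread between these samples.

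The members, the lists and the tests were chosen with earlier results of these data known. The text names all members, listed genes past the cutoffs, further fixed genes of the list, nearest tested neighbours of Thbd and F3, and the 5 and 3 most similar genes; some genes under this rule are not reported here. Similar genes of Procr and its relation to hair markers were added after its values were seen.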

Additional observations from a re-analysis of the deposited data

Results flagged for a closer look

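Values in each genotype were screened with Dixon's test for a library far from the other 3, over 26 sets of 4 libraries; chance alone flags about 1 set in 20, and 3 stood out. F3 was lowest in control A1, at 226.5 CPM against 336.3 to 352.8 in the other control libraries, and without A1 its log2 fold change was -1.58. Procr was highest in control A1, at 197.1 CPM against 22.9 to 48.6, the library with the highest hair follicle sum (32940 CPM). The clotting factors other than Vwf summed to 12.9 CPM (12.87) in control C6, against 0.304 to 0.492 CPM in the other control libraries. The cause of each was not tested.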

How the results depend on the processing

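Among the tested members other than Thbd, 1 was called (F3) under all 18 alternatives. Genes called higher, 302 in the reported test, were 478 with DESeq2, 179 with Xist as a covariate, 147 in the 6 libraries without Xist and 174 to 383 when a library was left out, with 174 without control B1 and 188 without RoraEKO C3. Genes called lower, 423 in the reported test, were 167 in the 6 libraries without Xist and 283 to 513 when a library was left out. Genes called in the coagulation list, 1 in the reported test (Pros1), were 2 with RLE size factors, DESeq2, the non-legacy test, the likelihood ratio test or all genes with at least 1 count (Eno1 added), 0 with Xist as a covariate or in the 6 libraries without Xist, and 1 to 2 when a library was left out. Where Eno1 alone was added, 312 to 478 of all genes were called higher and 389 to 576 lower. With the title letter as a replicate block 4 of the list were called, with F2rl1 (adjusted p = 0.0318), Serpinb2 (0.013) and Eno1 (0.0236) beside Pros1 (edgeR). In that setting 420 of the 13147 genes tested were called higher and 579 lower. Deviations from the genotype means correlated at 0.05 to 0.483 between libraries of the same letter and at -0.517 to 0.282 between libraries of different letters. The value was under 0.1 for letter B, and the letters were not taken as pairs in the reported test. Whether libraries of a letter share variation was not tested further. The log2 fold change of Procr was -1.42 with Xist as a covariate and -1.32 in the 6 libraries without Xist. It was -1.13 to 0.29 and that of Plau -0.05 to 0.29 when a library was left out, with the sign turned without control A1 for Procr (0.29), and without control A1 (-0.02) or RoraEKO B4 (-0.0516) for Plau. Levels per kb moved with the longest transcript, from 102 to 144 for F3 in control, and the order did not. The cause of these changes was not tested, apart from the smaller number of libraries where some were left out. Tfpi, Tfpi2, Plaur and Plat had too few counts to pass the filter.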
